A study of Homo sapiens with 5 samples.

Results

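Antisense long noncoding RNAs are transcribed from the strand opposite a protein-coding gene and are named after that gene with the ending AS. Here they were the genes whose symbol ends in -AS1, -AS2, -AS3 or -AS4 and whose mean FPKM over the 5 libraries was at least 0.5. FPKM is the number of fragments per kilobase of transcript, scaled to the depth of the library. The list was thus chosen by its level in inputs and RIPs together, and it holds 222 of the 1764 antisense genes in the tables, under 221 distinct symbols because NUTM2B-AS1 is listed under 2 identifiers. Of the 1764, 1043 were listed above 0 in at least 1 library, and the tables hold 56632 genes in all.

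RIPseq, sequencing of the RNA that comes down with an immunoprecipitated protein, was used to ask which transcripts CBFB and hnRNPK bind. The cells were MCF10A, a non-tumorigenic line of human mammary epithelial cells, kept under passage 20 in growth medium with no further treatment. An input and a FLAG RIP (1 library each) came from a stable MCF10A line expressing FLAG-CBFB, and 1 input and 2 hnRNPK RIP repeats came from parental MCF10A. The labels do not say on which end CBFB carries the tag or whether that line lacks its own CBFB, and no mock immunoprecipitation was analysed here.

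CBFB is the partner subunit of the RUNX transcription factors and does not itself contact DNA. The protein hnRNPK carries KH domains, which hold single-stranded C-rich sequence, and it binds many nuclear and cytoplasmic RNAs. Antisense RNAs can overlap the exons of the gene they face, share its promoter region or lie within its introns. Some act on that neighbour and others elsewhere in the cell, and for most the role is unknown.

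The libraries held between 69786576 and 106855647 expected counts. Mitochondrial genes took 4.27% and 11.18% of the counts of the inputs and 62.18% to 86.58% of those of the RIPs. The antisense RNAs took 0.101% and 0.121% of the remaining counts in the inputs. In the RIPs they took 0.165% for FLAG-CBFB, and 0.272% and 0.258% for hnRNPK. KRT5, a basal epithelial keratin, stood at 1974 and 1640 FPKM in the inputs, whereas the leukocyte gene PTPRC and the endothelial gene VWF were listed at 0.01 FPKM or less in all 5 libraries. Of 8 epithelial markers KRT14 was the lowest in the inputs, at 6.78 and 1.81 FPKM, and of 6 markers of other cell types the collagen gene COL1A1 was the highest, at 1.08 and 1.77. The FPKM of the median gene was 3.36-fold lower in the FLAG-CBFB RIP than in its input, and 12.6- and 13.6-fold lower in the hnRNPK RIPs. The mitochondrial shares alone would give folds of 2.53, 5.73 and 6.62. The median gene is called the typical gene below. Enrichment below is therefore log2(FPKM + 0.1) in the RIP minus that in its own input, centred on the median of the 13193 genes that passed the same expression threshold. A value of 2 is 4-fold over the typical gene. RUNX1, a reference transcript here, had a CBFB enrichment of 2.57 and a mean hnRNPK enrichment of 4.19, and GAPDH had 0.22 and -1.63.

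The stretches below let the C content of some leading antisense RNAs be read directly. Each is the 50-base window with the most C within 1 exon of the longest GENCODE 29 transcript, 5′ to 3′, and capitals mark runs of 4 or more C. The first 5 are from RNAs enriched in both kinds of RIP, and the last pair is from RNAs with an FPKM enrichment below 0 in both hnRNPK repeats. They were picked with these values known and do not stand for their groups. TUBA1B-AS1, near the median antisense RNA in its share of C, and WDFY3-AS2, which is lower, were enriched too and are not shown.

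VPS9D1-AS1: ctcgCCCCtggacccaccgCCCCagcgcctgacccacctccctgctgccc
BCAN-AS2: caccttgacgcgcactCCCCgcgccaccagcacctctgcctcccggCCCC
MMP25-AS1: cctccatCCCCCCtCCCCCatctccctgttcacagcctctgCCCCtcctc
HOXC-AS1: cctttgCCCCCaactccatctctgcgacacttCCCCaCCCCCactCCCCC
THBS3-AS1: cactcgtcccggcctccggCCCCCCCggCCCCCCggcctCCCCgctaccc
EPB41L4A-AS1: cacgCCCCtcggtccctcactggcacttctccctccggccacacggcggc
ZNF232-AS1: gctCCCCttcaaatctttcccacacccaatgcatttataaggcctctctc

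On GRCh38 these windows lie at chr16:89717525-89717574 (plus strand, exon 4 of 4) for VPS9D1-AS1, chr1:156646960-156647009 (minus, exon 2 of 2) for BCAN-AS2 and chr16:3056086-3056135 (minus, exon 1 of 2) for MMP25-AS1. Those of HOXC-AS1 and THBS3-AS1 are at chr12:53999148-53999197 (minus, exon 2 of 2) and chr1:155195242-155195291 (plus, exon 1 of 4). The windows of EPB41L4A-AS1 and ZNF232-AS1 are at chr5:112160709-112160758 (plus, exon 1 of 3) and chr17:5114454-5114503 (plus, the single exon). The first 5 windows hold 29 to 33 C, and the last pair hold 26 and 20. Over the 214 antisense RNAs with a transcript, the richest window held 15 to 35 C with a median of 25. A run of 4 C is present in 97.2% of these 214 transcripts and in 95.9% of all 14328 transcripts read.

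At this expression threshold a larger share of the antisense RNAs than of all analysed genes was enriched. In the FLAG-CBFB RIP 26 of 222 (11.7%) lay above 2, against 6.26% of all 13193 analysed genes. In the hnRNPK RIP 60 of 222 (27.0%) had a mean above 2, against 14.5%. Above 2 in both repeats were 51 (23%), against 12.7%. Below -2 lay none for CBFB (0.44% of all genes) and ZNF232-AS1 alone for hnRNPK (1.11% of all genes). Counts this small are not set apart from those shares. With the pseudocount and the centring, an RNA low in its input cannot reach -2 even at 0 in the RIP. For hnRNPK that includes the median antisense RNA, at 2.51 FPKM in the parental input. Without the expression threshold the order turned for CBFB, with 2.01% of antisense genes against 2.93% of all genes, and was 6.04% against 4.74% for hnRNPK.

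The median enrichment was 0.45 for CBFB and 0.94 for hnRNPK (0.78 and 1.13 in the repeats), where the typical gene is at 0. The antisense RNAs are expressed at lower levels, with a median mean FPKM of 1.35 against 6.21 for all analysed genes, and the hnRNPK scale is higher for low genes. At 0.5 to 1 FPKM the hnRNPK medians were 1.04 for the antisense RNAs and 0.97 for all genes, and at 2 to 5 FPKM they were 0.10 and 0.065. For CBFB the medians in the same ranges were 0.48 against 0.24 and 0.46 against -0.12.

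The mean FPKM that chose these RNAs includes the RIP libraries, so these counts describe the set and are not independent support. Of the 222, 5 passed only through their RIP values, and these 5 were above 2 in both kinds of RIP (TUBA1B-AS1, CDK6-AS1, TFAP2A-AS1, ZMIZ1-AS1 and RPL26L1-AS1). Among antisense genes with a mean of at least 0.5 FPKM over the inputs alone, 25 of 304 (8.22%) were above 2 for CBFB, against 5.39% of all genes so chosen, and 57 (18.8%) for hnRNPK, against 12.9%. Scaling each RIP before the pseudocount gave 25 (11.3%, against 6.36%) and 65 (29.3%, against 15.6%). With the input of the other cells it was 21 (9.46%, against 6.04%) for CBFB and 74 (33.3%, against 15.1%) for hnRNPK. With 1 library an arm the CBFB values have no replicate check.

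The hnRNPK RIP could be tested on the counts, 2 RIP libraries against 1 input, with a spread that rests on the RIP repeats. The RNAs tested include the 5 that passed the threshold only through their RIP values. The test was not repeated with the threshold on the inputs alone, so the numbers called describe the set. By edgeR's quasi-likelihood test 76 of the 222 antisense RNAs (34.2%) rose and 2 (0.901%) fell at a Benjamini-Hochberg adjusted p under 0.05. Of all analysed genes 24.9% rose and 12.5% fell. These shares were not matched for expression. The median antisense RNA held 30.0 and 26.6 counts in the hnRNPK RIPs, and 22 and 16 held 3 or fewer. A fall is hard to call at such counts, so the shares that fell are not read as a difference. Without the expression threshold 13.9% of 933 antisense genes rose, against 16.6% of all genes, so the order of the shares turned. The antisense RNAs that fell were THAP9-AS1 and ZNF232-AS1. DESeq2 called 63 higher (28.4%, against 22.7% of all genes) and 0 lower (against 7.22%), and at an unadjusted p under 0.05 edgeR had 4 that fell.

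Above 2 in both kinds of RIP were 24 antisense RNAs, which is 92.3% of the 26 for CBFB and 40.0% of the 60 for hnRNPK. Among all analysed genes 5.59% were above 2 in both, which is 89.2% of those for CBFB and 38.6% of those for hnRNPK, so the antisense RNAs overlapped about as genes at large did. The exceptions in the FLAG-CBFB RIP, named after their values were seen, were MAST3-AS1 and ASH1L-AS1, whose hnRNPK enrichments were 1.48 and 2.30, and 1.88 and 2.04, in the repeats. The CBFB and hnRNPK enrichments of the 222 RNAs had a Pearson correlation of 0.64 and a Spearman correlation of 0.44, across genes that share libraries and are not independent replicates. The hnRNPK repeats correlated at 0.93, and the SD of their difference was 0.68. Both repeats are set against the same input, so these values hold no input error and are not like the correlation between the kinds of RIP.

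**Figure D1:**
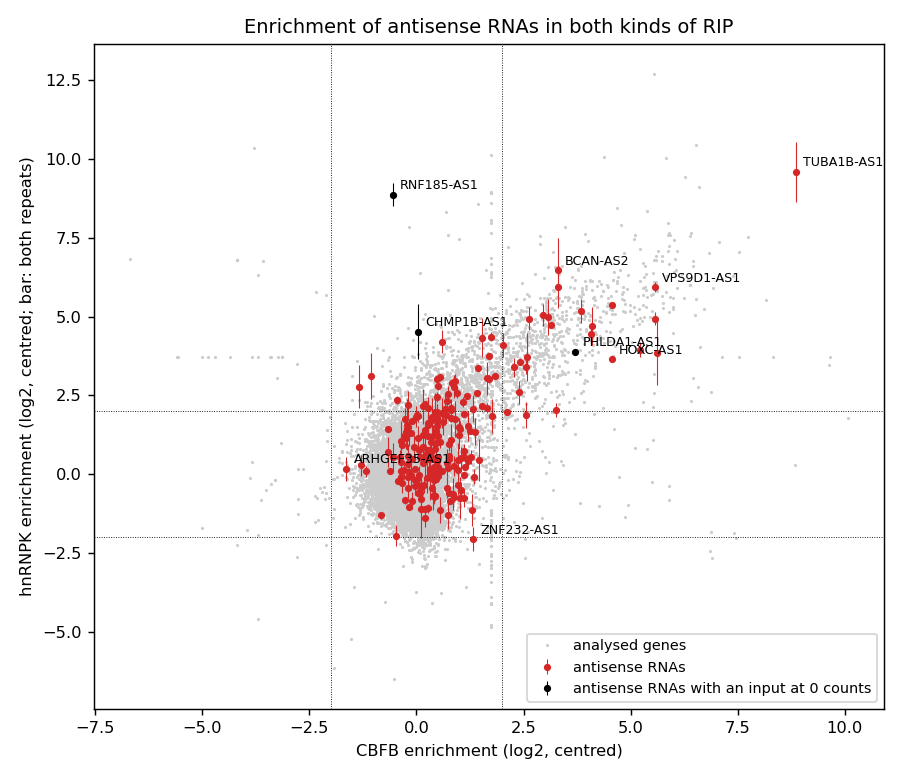
CBFB enrichment (x axis) against mean hnRNPK enrichment (y axis), both in centred log2 units, for the 222 antisense RNAs over all 13193 analysed genes in grey. Vertical bars join the hnRNPK repeats, dotted lines mark 2 and -2, and black points are RNAs with an input at 0 counts, whose enrichment is not a measured ratio; the upper right field beyond both lines holds 24 antisense RNAs.

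The share enriched was highest among the antisense RNAs with the highest mean FPKM. Of those with a mean FPKM of 0.5 to 1, 6 of 84 (7.14%) were above 2 for CBFB, against 7.28% of all genes in that range. At 5 FPKM and over it was 8 of 26 (30.8%), against 6.72%. The ranges between gave 8.62% and 13.0%, against 7.48% and 3.88%. For hnRNPK the shares were 23.8%, 20.7%, 29.6% and 46.2% from the lowest range to the highest, against 21.8%, 16.9%, 12.2% and 13.4%. Since RIP libraries enter the mean FPKM, a strongly pulled-down RNA is moved into a higher range by the pull-down itself, and the order is read no further.

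**Figure D2:**
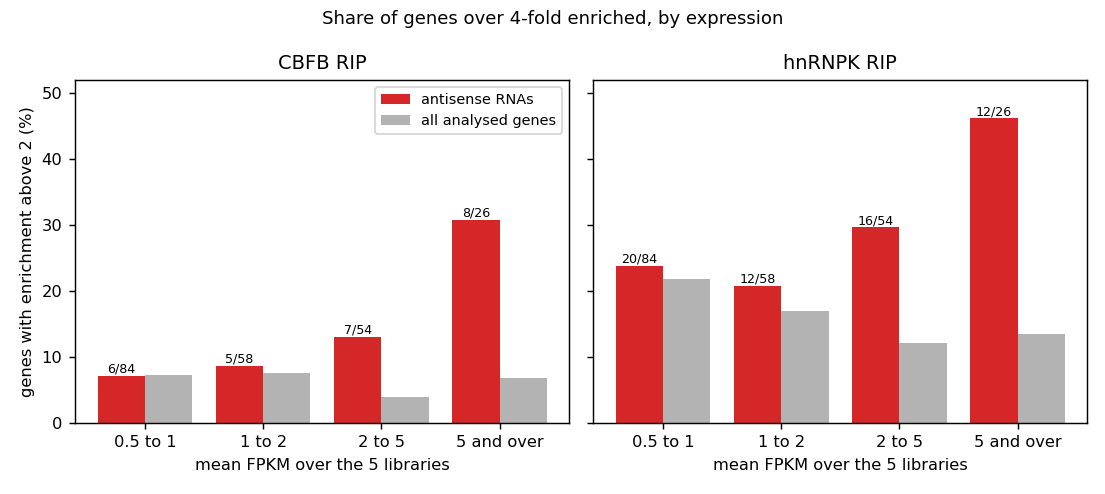
Share of genes (y axis, percent) with an enrichment above 2 in ranges of mean FPKM (x axis) for antisense RNAs (red) and all analysed genes (grey), in the FLAG-CBFB RIP (left) and hnRNPK RIP (right). Numbers over the red bars are antisense RNAs above 2 and in the range; the bars are alike up to 2 FPKM, and at 5 FPKM and over they reach 30.8% and 46.2% against 6.72% and 13.4%.

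TUBA1B-AS1 was the most enriched antisense RNA in both kinds of RIP. It faces TUBA1B, which encodes an alpha-tubulin, and 80.2% of its exonic bases overlap exons of that gene. In the FLAG-CBFB cells it had 0.46 FPKM in the input and 77.27 in the RIP. In parental cells it had 0.15 in the input, then 7.83 and 27.47 after hnRNPK pull-down. All 3 RIPs lay far above both inputs, and the inputs rested on 15.4 and 5.27 counts against 3520, 561.2 and 1700 counts in the RIPs. The CBFB enrichment was 8.86, and on counts 9.89 with a 95% interval of 9.17 to 10.7 that covers counting error only. For hnRNPK it was 8.64 and 10.5. Because TUBA1B-AS1 is one of the 5 RNAs that passed the threshold only through the RIPs, its enrichment and rank are a description and no test is given. TUBA1B itself had 611.4 FPKM in the FLAG-CBFB cell input and 189.9 in the RIP from those cells, an enrichment of 0.06, and -1.18 for hnRNPK. TUBA1B-AS1 took 0.0163% and 0.0046% of the summed counts of the pair in the inputs and 12.3%, 15.2% and 17.3% in the RIPs. Whether the counting used strand is not stated, so in the overlapping exons reads of the 2 genes may not be told apart.

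VPS9D1-AS1, also called MYU and described elsewhere as a partner of hnRNPK, was the most abundant antisense RNA in the FLAG-CBFB RIP. It stood at 7.63 FPKM in the FLAG-CBFB cell input and 109.2 in the RIP, and at 16.71 in parental cells before and 73.5 and 84.5 after hnRNPK pull-down. No RIP value came near an input value even before centring. Enrichment was 5.57 for CBFB and 5.79 and 6.09 for hnRNPK, with an edgeR adjusted p of 1e-12. These are its best-covered values, with 1135 to 13925 counts a library. The sense gene VPS9D1 was enriched too, at 2.26 and 3.76, but by 3.31 less for CBFB and by 2.18 less for hnRNPK. Exons of VPS9D1 overlap 29.5% of the exonic bases of VPS9D1-AS1, and whether the pair shares reads was not tested.

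BCAN-AS2 and MMP25-AS1 were enriched together with the genes they face. BCAN-AS2 had 8.65 FPKM in the FLAG-CBFB cell input, 25.5 in its RIP, and for parental cells 4.15 in the input and 60.55 and 13.74 after hnRNPK pull-down. Its hnRNPK repeats differed widely (7.49 and 5.47), yet both stayed above its CBFB enrichment of 3.30. BCAN, which encodes the proteoglycan brevican, had 3.32 for CBFB and 4.77 for hnRNPK, within 0.02 of its antisense RNA for CBFB. MMP25-AS1 had 2.87 and 8.64 FPKM in the FLAG-CBFB input and RIP, and 2.37, 19.09 and 6.97 in the parental input and hnRNPK RIPs. That gave 3.31 for CBFB and 6.61 and 5.28 for hnRNPK, beside 2.63 and 4.49 for MMP25, a membrane-anchored metalloproteinase gene. By edgeR both antisense RNAs rose in the hnRNPK RIP, with adjusted p of 2.2e-10 and 3.3e-11. Exons of the sense gene overlap 46.7% of the exonic bases of BCAN-AS2 and 20.1% of those of MMP25-AS1. BCAN held 54.1 to 247 counts a library, against 172.9 to 3679 for BCAN-AS2. Whether the values of BCAN and MMP25 come from reads shared with their antisense RNAs was not tested.

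A further group was enriched while its sense genes were not. ZSCAN16-AS1 had 0.87 and 6.77 FPKM in the FLAG-CBFB pair and 1.08, 3.58 and 3.72 in the hnRNPK set, with enrichments of 4.57, 5.30 and 5.46. Its sense gene, a zinc-finger gene, had 0.54 and 1.14. THBS3-AS1, opposite a thrombospondin gene, had 1.51 and 8.12 FPKM in the FLAG-CBFB pair and 0.98, 1.37 and 3.02 in the hnRNPK set. Its enrichment was 4.10 for CBFB and 4.10 and 5.29 for hnRNPK, while THBS3 had -0.22 and 0.71. In every one of these RIPs the antisense RNA lay above its input and its share of the summed counts of the pair was larger. For THBS3-AS1 that share was 2.14% and 1.54% in the inputs and 37.8%, 14.8% and 32.9% in the RIPs.

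SLC25A25-AS1, opposite a mitochondrial carrier gene, had 2.22 and 5.71 FPKM in the FLAG-CBFB pair and 2.43, 9.30 and 3.90 in the hnRNPK set. Enrichment was 3.07, 5.55 and 4.42, against -0.23 and 1.07 for SLC25A25. WDFY3-AS2, which lies within the body of an autophagy adaptor gene without sharing exons, had 0.72 and 3.38 FPKM, then 0.40, 1.77 and 0.92. It had 3.83 for CBFB and 5.56 and 4.79 for hnRNPK, while WDFY3 had -1.02 and 0.10. SLC44A3-AS1, opposite a choline transporter-like gene and also without shared exons, had 1.45 and 3.46 FPKM, then 1.09, 2.38 and 3.59. Its values were 2.95, 4.71 and 5.40, against 0.19 and 0.36 for SLC44A3. WDFY3-AS2 and SLC44A3-AS1 share no exon with their sense genes in GENCODE 29, and where the reads fall in the models used for counting was not tested. The edgeR adjusted p for these 5 RNAs in the hnRNPK RIP ran from 2.4e-11 (ZSCAN16-AS1) to 2.8e-07 (THBS3-AS1).

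**Figure D3:**
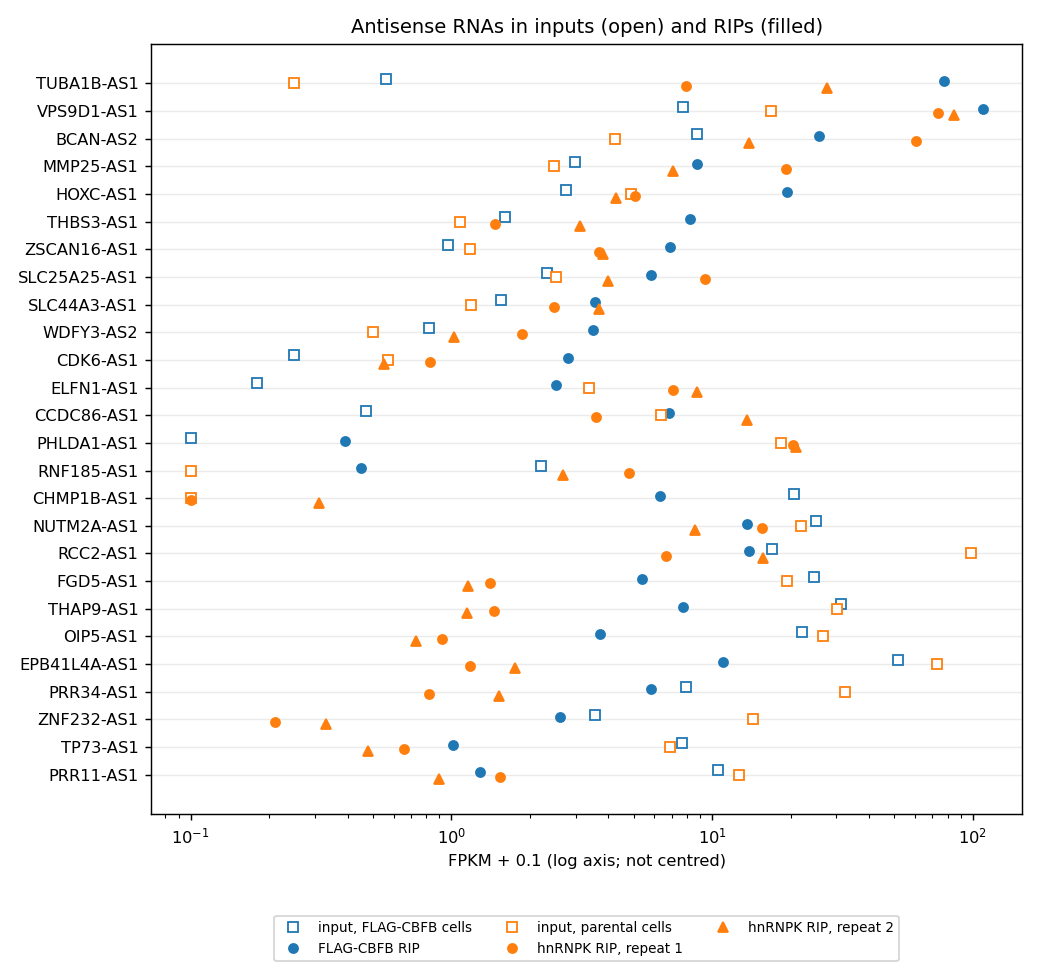
FPKM + 0.1 (x axis, log scale, not centred) of 26 antisense RNAs (rows) in each of the 5 libraries, with inputs as open squares and RIPs as filled symbols, blue for FLAG-CBFB cells and orange for parental cells. TUBA1B-AS1, VPS9D1-AS1, BCAN-AS2 and MMP25-AS1 lie to the right of their inputs in all 3 RIPs, while OIP5-AS1, EPB41L4A-AS1 and ZNF232-AS1 lie to the left.

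Without centring, 14 antisense RNAs (6.31%) had a higher FPKM in all 3 RIPs than in the matching input, against 3.68% of all analysed genes. A RIP above its input helped an RNA enter the list, so this count describes the set and is not independent support. For the FLAG-CBFB RIP alone there were 28 (background 7.27%) and for both hnRNPK repeats 17 (background 4.31%). GASK1B-AS1, PRDM6-AS1 and TFAP2A-AS1, of which TFAP2A-AS1 passed the threshold only through the RIPs, were among the 14. They are named after their values were seen. GASK1B-AS1 was the best covered of these 3, with 8.70 and 16.17 FPKM in the FLAG-CBFB pair and 5.66, 17.89 and 10.03 in the hnRNPK set.

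CDK6-AS1, antisense to a G1 cyclin-dependent kinase gene, ranked high on few counts. It had 0.15 and 2.69 FPKM in the FLAG-CBFB pair (4 and 62 counts) and 0.47, 0.73 and 0.45 in the hnRNPK set (8, 18 and 10 counts). Enrichment was 5.23 for CBFB, on counts 5.97 with an interval of 4.54 to 7.89, and 4.20 and 3.71 for hnRNPK. It too passed the threshold only through the RIPs, so no test is given. CDK6 had -0.73 and 0.85.

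Of the 60 RNAs above 2 for hnRNPK, 36 (60.0%) were at or below 2 for CBFB, against 61.4% of all genes above 2 for hnRNPK. NUTM2A-AS1 was the most abundant of them. It had 24.88 FPKM in the FLAG-CBFB cell input and 13.49 in the RIP, and 21.9 in parental cells with 15.38 and 8.47 after hnRNPK pull-down. That gave 0.87 for CBFB and 3.15 and 2.40 for hnRNPK, with an edgeR adjusted p of 3e-08. NUTM2A and NUTM2B are near-identical copies, so the division of reads between their antisense RNAs is uncertain. ZNF561-AS1 had 2.71 and 1.37 FPKM in the FLAG-CBFB pair and 3.20, 1.28 and 0.73 in the hnRNPK set, or 0.81, 2.40 and 1.77. Its edgeR log2 change was 3.08 (adjusted p = 1.1e-05), and its sense gene moved alike, at 0.69 and 2.19. The difference between the 2 kinds of RIP was not tested, because CBFB has 1 library an arm. HNRNPK-AS1, named after its values were seen because it faces the HNRNPK gene, had hnRNPK enrichments averaging 2.21 ± 0.15 (SD, n = 2 repeats) on 6.05 to 18.6 counts a library. Exons of HNRNPK overlap 79.2% of its exonic bases, and edgeR did not call it (adjusted p = 0.13). HNRNPK mRNA itself had -1.62.

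Of the antisense RNAs of the HOX clusters, which carry the genes for positional identity of tissues, 2 passed the expression threshold. HOXC-AS1 had 2.66 FPKM in the FLAG-CBFB cell input and 19.28 in the RIP, then 4.77 in parental cells and 4.96 and 4.17 after hnRNPK pull-down. It was among the highest for CBFB at 4.56, on counts 4.64 with an interval of 4.34 to 4.95, and had 3.71 and 3.57 for hnRNPK (adjusted p = 3.4e-08). HOXA-AS2 was flatter, with 5.52 and 4.76 FPKM, then 5.66, 1.97 and 1.79, or 1.54 for CBFB and 2.18 and 2.16 for hnRNPK (adjusted p = 7.4e-05). Neither is named for a single gene, so no sense comparison was made. HOXA-AS3, HOXB-AS1, HOXB-AS3 and HOXC-AS2 had mean FPKM of 0.146, 0.212, 0.028 and 0.006, and GATA3-AS1 and CDKN2B-AS1 of 0.02 and 0.

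Of the 8 antisense RNAs most abundant in the inputs, 6 had a mean hnRNPK enrichment below 0, and 4 had an edgeR log2 change below 0. Of the 4748 genes with input means at least as high, 72.8% had an enrichment below 0. FGD5-AS1 had 24.47 and 5.29 FPKM in the FLAG-CBFB pair and 19.29, 1.31 and 1.06 in the hnRNPK set, or -0.44, -0.13 and -0.30. THAP9-AS1 had 31.1 and 7.60 FPKM, then 30.15, 1.36 and 1.05, or -0.27, -0.72 and -0.95. The fall of THAP9-AS1 in the hnRNPK RIP passed the edgeR test, with a log2 change of -0.98 and an adjusted p of 0.03. MAPKAPK5-AS1 did not pass it, at -1.14 and -1.05 with an adjusted p of 0.064.

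In the hnRNPK RIP, OIP5-AS1 and EPB41L4A-AS1 were lower on FPKM than on counts. OIP5-AS1, known as cyrano and for a conserved site for miR-7, had 22.09 and 3.61 FPKM in the FLAG-CBFB pair and 26.48, 0.82 and 0.63 in the hnRNPK set. Its FPKM enrichments of -1.20 and -1.42 for hnRNPK stood beside -0.08 and -0.39 on counts, and edgeR gave -0.23 (adjusted p = 0.65). The counting interval of repeat 2 was -0.56 to -0.24. In the FLAG-CBFB RIP it was low on both scales, at -0.83 on FPKM and -0.91 on counts (interval -0.98 to -0.85). EPB41L4A-AS1, host of a small nucleolar RNA, had 51.42 and 10.88 FPKM, then 72.62, 1.08 and 1.65. Its hnRNPK enrichment was -2.29 and -1.61, while counts gave -0.09 and 0.89 and edgeR 0.47 (adjusted p = 0.36). The mean transcript length that RSEM fitted to EPB41L4A-AS1 was 735.8 bases in parental cells and 2587 and 2935 after hnRNPK pull-down, and that of OIP5-AS1 3290, 6523 and 6058. FPKM divides by this length, so the low hnRNPK values of both go with a shorter fitted length in the parental input than in those RIPs. In the FLAG-CBFB libraries OIP5-AS1 was fitted at 6449 bases in the input and 6095 in the RIP. Its hnRNPK RIPs were thus near the other input in length.

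ZNF232-AS1 had the lowest hnRNPK enrichment and lay above the typical gene in the FLAG-CBFB RIP. Its FPKM was 3.44 and 2.52 in the FLAG-CBFB pair and 14.28, 0.11 and 0.23 in the hnRNPK set, where the RIPs held 6 and 8.9 counts. Enrichment was 1.31 for CBFB and -2.44 and -1.68 for hnRNPK, whose fall passed the edgeR test (log2 change -2.12, adjusted p = 0.017). PRR34-AS1 showed the same order, 1.31 against -1.64 and -0.65, without a call (adjusted p = 0.17). Both had inputs about 4-fold apart, 3.44 against 14.28 FPKM and 7.84 against 32.2 FPKM. THUMPD3-AS1 had -1.69 and -1.07 for hnRNPK and 0.20 for CBFB (adjusted p = 0.39).

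The lowest CBFB enrichments did not reach -2. ARHGEF35-AS1 had 1.57 and 0.06 FPKM in the FLAG-CBFB pair, 88.9 and 2.69 counts, and an enrichment of -1.64. ARHGEF35 has a close copy, ARHGEF5, so its reads are uncertain. PRR11-AS1 had 10.47 and 1.19 FPKM and -1.29, close to the -1.43 of PRR11. TP73-AS1, next to a gene of the p53 family, had 7.57 and 0.91 FPKM and -1.18, but -0.46 on counts, and its fitted length was 2931 bases in the input and 5049 in the RIP. None of these 3 was below the typical gene in both hnRNPK repeats.

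Some antisense RNAs differed between the cell lines before any pull-down. The inputs were over 4-fold apart for 12 of the 222 (5.41%), against 2.71% of all genes, with 1 library a line and so no test. In 4 the FLAG-CBFB cells were higher (background 1.08%) and in 8 lower (1.62%). PHLDA1-AS1 had 0 counts in the input of FLAG-CBFB cells, which allows up to 3, and 10.5 in their RIP, against 518.6 in parental cells and 840.6 and 753.6 after hnRNPK pull-down. With the input set at 3 counts its CBFB ratio would be 14.2-fold over the typical gene, or 3.82 in log2. The exact interval of its count ratio starts lower, at 3.18. Its hnRNPK enrichment of 3.82 and 3.96 is well covered (adjusted p = 2.6e-09). CHMP1B-AS1, named after its values were seen, was the reverse, with 834.7 and 218.6 counts in the FLAG-CBFB libraries and 0, 0 and 7.24 in the parental ones. Its CBFB enrichment was 0.04, and its hnRNPK value, although among the 60, rests on those 7.24 counts.

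RNF185-AS1 had 41.2 and 6.07 counts in the FLAG-CBFB libraries, 0 in parental cells and 90.3 and 42.8 after hnRNPK pull-down. With the input set at 3 counts, its hnRNPK ratios would be 307.0- and 186.1-fold over the typical gene. These take the RIP counts as exact and are not lower limits. All exonic bases of CHMP1B-AS1 and RNF185-AS1, and 97.2% of those of PHLDA1-AS1, overlap exons of the sense gene, and those genes held 312.8 to 24191 counts a library. How reads were divided within these pairs cannot be told from the gene totals.

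ELFN1-AS1 and CCDC86-AS1 had a high CBFB enrichment beside a low input. ELFN1-AS1 had 0.08 FPKM in the FLAG-CBFB cell input (4 counts) and 2.43 in its RIP, against 3.28, 6.98 and 8.63 in the parental set. CCDC86-AS1 had 0.37 and 6.74 FPKM, against 6.29, 3.49 and 13.5. Their CBFB enrichments were 5.56 and 5.61, and for both the RIP of the FLAG-CBFB cells was near the level of the parental input. RCC2-AS1, the most abundant in the parental input at 98.57 FPKM, had 16.87 in the FLAG-CBFB cell input, and enrichments of 1.45 for CBFB and -0.23 and 1.11 for hnRNPK. Of the 26 RNAs above 2 for CBFB, 19 (73.1%) were above 2 against either input, against 74.5% of all genes above 2 for CBFB. These are 4.66% of all analysed genes. SYT15-AS1, with 105.9 and 6 counts in the FLAG-CBFB libraries and 14, 19 and 3 in the parental ones, had -1.34 for CBFB and 3.46 and 2.10 for hnRNPK (adjusted p = 0.032).

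A sense gene was found for 220 of the 222. In GENCODE 29, 166 pairs share exonic bases on opposite strands, 39 overlap without shared exonic bases, 13 lie head to head within 5000 bases, and 2 are annotated on the same strand. Pairs in which either gene had 3 counts or fewer in every library of a comparison were left out. No minimum FPKM was set for the sense gene, and centring raises the hnRNPK value of a gene near 0 FPKM. TTN, at 0.07 FPKM in the parental input and 0 in both hnRNPK RIPs, had a mean of 2.94. The enrichment of the antisense RNA exceeded that of its sense gene in 134 of 212 pairs for CBFB (median difference 0.39) and in 120 of 213 for hnRNPK (0.27). It did so in all 3 RIP libraries for 88 of 211 pairs and fell short in all 3 for 51. For CBFB this balance turned with the input of the parental cells in place of the own input, with 91 of 212 pairs and a median difference of -0.12. With each RIP scaled before the pseudocount, the antisense RNA was higher in 138 of 212 pairs for CBFB and 115 of 213 for hnRNPK.

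Sense and antisense enrichment went together only weakly. Across pairs the Pearson correlation was 0.12 for CBFB and 0.15 for hnRNPK, as a description of pairs that share libraries. Of the 26 antisense RNAs above 2 for CBFB, 5 had a sense gene above 2, and of the 60 for hnRNPK, 23 had. Among the sense genes that were analysed themselves, 14 of 176 (7.95%) were above 2 for CBFB and 42 (23.9%) for hnRNPK. In pairs with shared exons the antisense RNA was higher in 107 of 162 for CBFB, and in pairs that overlap without shared exons in 16 of 35. For hnRNPK these counts were 97 of 164 and 16 of 34.

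In 15 of 211 pairs the antisense RNA exceeded its sense gene by more than 2 in all 3 RIP libraries. Of these, 12 share exons and 3 overlap without shared exons. TUBA1B-AS1 led, by 8.80 for CBFB and 10.8 for hnRNPK, followed by WDFY3-AS2 (4.86 and 5.07 ± 0.10, SD over the repeats), CDK6-AS1 on its few counts (5.96 and 3.10, chosen through the RIPs like TUBA1B-AS1), THBS3-AS1 (4.32 and 3.99 ± 0.65) and ZSCAN16-AS1 (4.03 and 4.24 ± 0.10).

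At the other end the sense gene was pulled down and the antisense RNA was not. NRSN2, which encodes a neuronal membrane protein, had 4.63 and 34.03 FPKM in the FLAG-CBFB pair and 5.36, 32.06 and 28.11 in the hnRNPK set. NRSN2-AS1 had 3.32 and 0.69 FPKM, then 4.41, 0.47 and 0.25. The enrichments were 4.60 and 6.17 for NRSN2 and -0.37 and 0.37 for NRSN2-AS1, whose share of the counts of the pair was 18.7% and 20.7% in the inputs and 0.637%, 0.457% and 0.273% in the RIPs.

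RAB11B, a GTPase gene of recycling endosomes, had 31.29 and 142.2 FPKM in the FLAG-CBFB pair and 27.96, 80.5 and 60.28 in the hnRNPK set. RAB11B-AS1 had 2.74 and 0.59 FPKM, then 3.16, 0.13 and 0.22, or 4.22 less for CBFB and 4.90 less for hnRNPK on the log2 scale. FOXP4 (a forkhead factor gene) and CBLL1 (a ubiquitin ligase gene) had hnRNPK enrichments of 5.29 and 6.08, and FOXP4-AS1 and CBLL1-AS1 had -1.10 and -0.42. Those antisense RNAs held 1 to 8 counts in the hnRNPK RIPs, and edgeR called neither (adjusted p = 0.44 and 0.37). Over these 4 antisense RNAs the CBFB enrichment ran from -0.37 to 0.72 and the mean hnRNPK enrichment from -1.10 to 0.37.

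**Figure D4:**
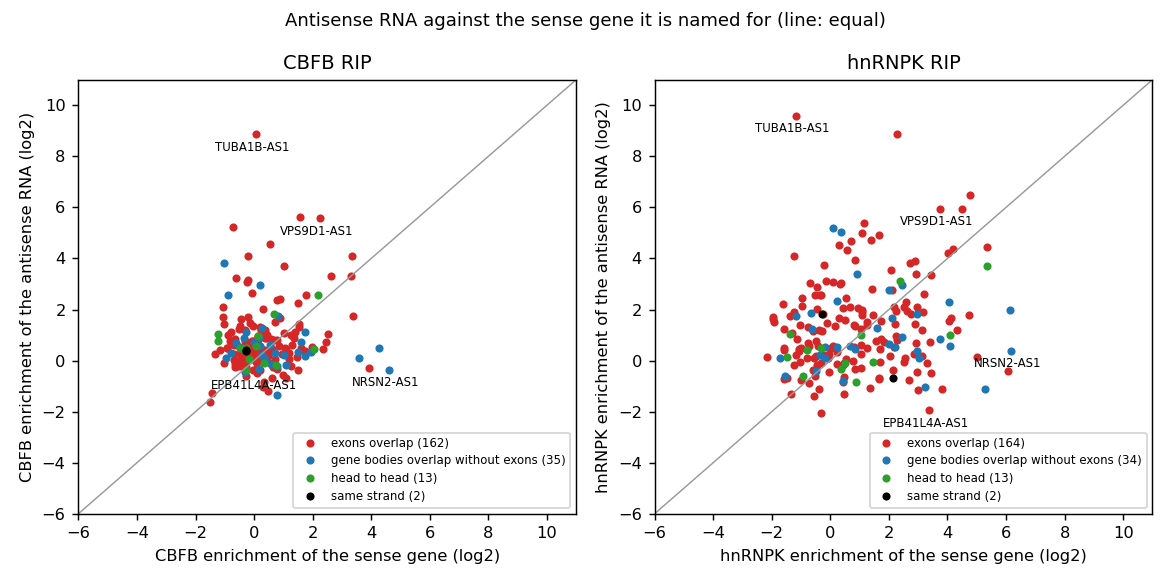
Enrichment of each antisense RNA (y axis) against that of the sense gene it is named for (x axis), in centred log2 units, for the FLAG-CBFB RIP (left, 212 pairs) and the mean of the hnRNPK RIPs (right, 213 pairs), coloured by the annotated arrangement; the line marks equal values. TUBA1B-AS1 lies far above the line and NRSN2-AS1 far below it in both panels, and most pairs cloud around 0 with little slope.

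MCM3AP-AS1, opposite the gene of an mRNA export factor, was close to its pair and to the typical gene for CBFB, at -0.18 against -0.53. For hnRNPK it had 0.90 and 1.72 against a mean of -0.76 for MCM3AP, and edgeR did not call it (adjusted p = 0.071).

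C content was higher in the enriched antisense RNAs, as it was in enriched genes at large. The 25 with a transcript and a CBFB enrichment above 2 had a median of 28.9% C and 6.48 runs of 4 or more C per kb, against 25.1% and 3.60 in the other 189. Among all analysed genes these medians were 30.5% and 8.97 above 2 and 23.3% and 3.21 at or below 2. For hnRNPK the antisense RNAs had 26.6% and 5.05 above 2 and 25.1% and 3.48 otherwise. The Spearman correlation of enrichment with C content over 214 RNAs was 0.31 for CBFB and 0.19 for hnRNPK, a weak description across genes of unequal length and depth.

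The leading RNAs were not uniform in this respect. VPS9D1-AS1 (34.8% C), BCAN-AS2 (36.1%), MMP25-AS1 (35.6%), HOXC-AS1 (34.9%) and ELFN1-AS1 (35.9%) are C-rich, and HOXC-AS1 has 25.5 runs of 4 or more C per kb. TUBA1B-AS1, the most enriched, has 24.6% C and 1.11 runs per kb, and WDFY3-AS2 has 18.4% and 1.03. Those values are near or below the 25.2% and 3.98 of the median antisense RNA.

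**Figure D5:**
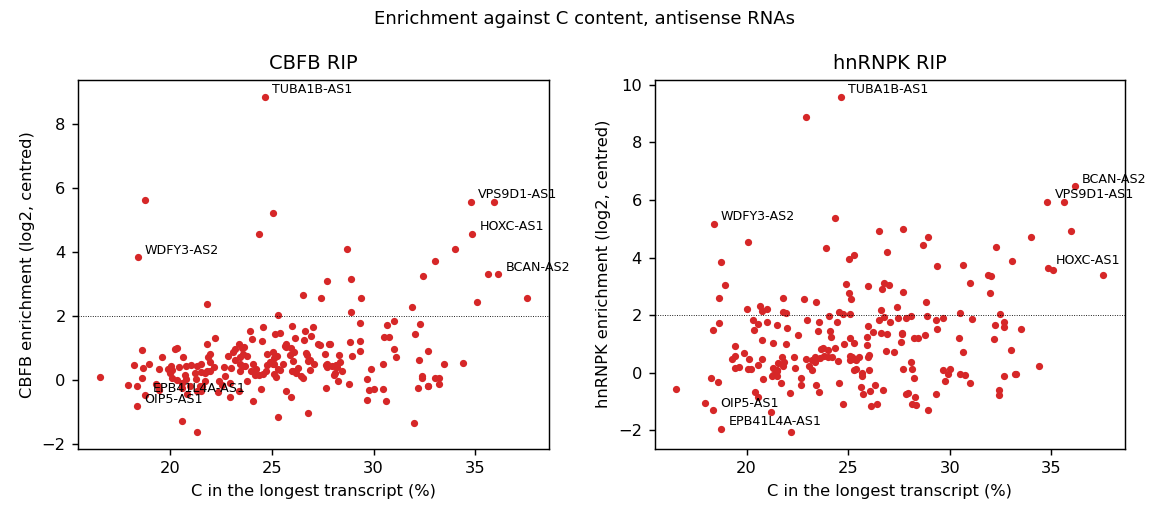
Enrichment (y axis, centred log2) against the share of C in the longest GENCODE 29 transcript (x axis, percent) for 214 antisense RNAs, in the FLAG-CBFB RIP (left) and hnRNPK RIP (right), with a dotted line at 2. VPS9D1-AS1, BCAN-AS2 and HOXC-AS1 lie at the C-rich end above the line, whereas TUBA1B-AS1 and WDFY3-AS2 lie above it at 24.6% and 18.4% C.

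Set beside other long noncoding RNAs at the same expression threshold, 12 of 70 LINC genes (17.1%) were above 2 for CBFB and 16 (22.9%) for hnRNPK. Their medians, 0.51 and 0.78, were close to the 0.45 and 0.94 of the antisense RNAs. Small nucleolar RNA host genes, which include EPB41L4A-AS1, had 1 of 26 above 2 for CBFB and 0 for hnRNPK, with a median hnRNPK enrichment of -1.09. They are expressed higher, with a median mean FPKM of 24.8 against 1.35 for the antisense RNAs. All analysed genes at 5 FPKM and over had a median hnRNPK enrichment of -0.49. No test of these differences was made.

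At the threshold itself, TSPAN14-AS1 (mean 0.5 FPKM) and COA6-AS1 (0.51) were the last included, and SH3RF3-AS1 (0.498) and SLC38A4-AS1 (0.494) the first left out, just above ZEB1-AS1 (0.49). TSPAN14-AS1 had 0.86, 0.33, 0.89, 0.32 and 0.10 FPKM over the libraries and COA6-AS1 0.56, 0.35, 1.51, 0.05 and 0.08. Values this low carry little information, and edgeR called neither (adjusted p = 0.17 and 0.74).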

How the data were processed

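Per the labels, Trizol and RNeasy columns gave the RNA and a TruSeq mRNA kit the libraries. The submitters' processing notes name Trimmomatic, STAR, RSEM and hg19, and versions are not given in the sources used here. The authors deposited 1 table per library with RSEM expected counts (estimated counts, which need not be whole) and FPKM. Gene symbols came from a table of gene names and GENCODE 29, which named 51497 of 56632 identifiers. Coordinates, exon overlap and transcript sequences are those of GENCODE 29 on GRCh38, not of the build of the tables, and coordinates were not converted. Of the antisense RNAs, 169 are typed antisense there and 66 bear another name. The list follows the symbol alone, so it also holds 2 genes typed protein-coding, KRT10-AS1 among them. Others are typed lincRNA, processed transcript or pseudogene.

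Samples were grouped by their titles. The members and lists were chosen with earlier results of these data known. Enrichment was the difference in log2(FPKM + 0.1) between a RIP and its input, centred on the median over genes averaging 0.5 FPKM or more, so a fold change is on that scale. Centring follows the log and raises every gene by the typical fall, so a gene at or near 0 in both libraries ends too high. RNAs with 3 counts or fewer in all libraries of a comparison therefore got no fold relative to a sense gene. Sense genes near 0 FPKM with more counts were kept, so their hnRNPK values can still end too high. For RNAs with an input at 0, a ratio against 3 counts per library is given, with the RIP counts taken as exact. Scaling the RIP before the pseudocount was an alternative. The threshold of 2 takes the 4-fold size of the study's cutoff. The study plotted adjusted FPKM + 1, whereas 0.1 was added and values were centred here, so the numbers above 2 are not on the study's scale. Expected counts were rounded and tested with edgeR 4.0.16 (quasi-likelihood, 2 RIP against 1 input, Benjamini-Hochberg adjustment over 13193 genes), scaled to a median log2 ratio of 0, with DESeq2 1.42.0 as an alternative. The repeats are not stated to be separate cultures, so p-values measure only the spread between these libraries. Count ratios have exact binomial 95% intervals for counting error only. The edgeR step was tested on simulated counts. R 4.3.3 and Python 3.11.15 with pandas 2.3.3 were used.

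The genes named were, by rule, the RNAs with the 8 highest and 4 lowest enrichments in each RIP, the 8 most abundant in the inputs, the 6 highest and 4 lowest differences from the sense gene, each on at least 50 counts, 4 around the threshold, and a fixed list of known antisense RNAs. FOXN3-AS1, also on that list, had a mean of 0.384 FPKM.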

Additional observations from a re-analysis of the deposited data

Results flagged for a closer look

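ZNF232-AS1 lay on opposite sides of the typical gene in the 2 kinds of RIP, while its FPKM fell in all 3 RIPs. Its CBFB enrichment of 1.31 exceeded its mean hnRNPK enrichment by 3.38 on the log2 scale, with -2.44 and -1.68 in the hnRNPK repeats. The counting intervals of all 3 values lay on their own side of 0, but the difference was not tested because CBFB has 1 library an arm. The inputs of this RNA were about 4-fold apart, at 3.44 FPKM in FLAG-CBFB cells and 14.28 in parental cells, and the part of that in the result was not tested.

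The fitted transcript length, a column that the comparisons do not use, differed by more than 1.5-fold between RIP and input for some antisense RNAs with at least 100 counts in both libraries. That held for 2.78% of 72 RNAs in the FLAG-CBFB RIP, 9.09% of 44 in hnRNPK repeat 1 and 5.41% of 37 in repeat 2, against 1.55% of 129 between the inputs. EPB41L4A-AS1 and OIP5-AS1 were longer in both hnRNPK repeats, and OIP5-AS1 also differed between the inputs. Each of these shares rests on 2 to 4 RNAs, and no test was made.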

How the results depend on the processing

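No paired analysis was possible because only replicate number 1 occurs in both an input and a RIP. Leaving out an hnRNPK repeat leaves 1 library against 1, so edgeR was not run that way. Of 103 recomputed values 73 stayed within the set limits, and only the CBFB difference from the sense gene changed sign among the values that were centred alike. With a pseudocount of 1 FPKM, 19 antisense RNAs were above 2 for CBFB (8.56%, against 4.69% of all genes). For hnRNPK there were 38 (17.1%, against 8.61%). The medians were then 0.76 (CBFB) and 1.23 (hnRNPK), and the median differences from the sense gene were 0.57 and 0.72. Scaling the RIP before the pseudocount gave 0.17 for that hnRNPK difference. Without centring, 10 RNAs were above 2 for CBFB (4.5%, against 2.08% of all genes) and 5 for hnRNPK (2.25%, against 1.19%). The medians were then -1.30 and -2.77, beside -1.75 and -3.71 over all genes. The hnRNPK median was 0.56 centred on the mean, 0.41 with TMM and 0.66 with DESeq2 size factors, where the median of all genes shifted to -0.384, -0.546 and -0.302.

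Without a filter on low values the antisense RNA was above its sense gene in 469 of 623 pairs for CBFB and 461 of 625 for hnRNPK, by medians of 0.74 and 1.60. There 2.01% and 6.04% of antisense genes were above 2, against 2.93% and 4.74% of all genes, and edgeR called 130 of 933 higher (13.9%, against 16.6%), so the CBFB and edgeR shares turned below those of all genes and the hnRNPK share did not. At a mean of at least 1 FPKM those pairs were 84 of 131 and 72 of 132. The hnRNPK difference was 0.47 with the filter on the inputs and 0.46 with at least 50 counts. With the input of the other cells, the medians were 0.095 and 1.36 and the differences -0.12 and 0.63. At a threshold of 1, 61 (27.5%, against 12.6%) and 109 (49.1%, against 25.7%) RNAs were called. Without 1 hnRNPK repeat, 59 (26.6%, against 14.1%) to 70 (31.5%, against 15.1%) RNAs were above 2. The median was then 0.78 to 1.13, 111 to 121 RNAs were above their sense genes, and the median difference was 0.24 to 0.36. DESeq2 called 0 lower, against 7.22% of all genes. Chosen after seeing the data, leaving out genes with inputs over 4-fold apart gave 23 (11%, against 5.69%) and 53 (25.2%, against 14%) of 210 above 2. Depth limits the hnRNPK values most, since 22 and 16 of the 222 held 3 counts or fewer in those RIPs.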
